A study of Mus musculus with 15 samples.

Results

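The liver response to di(2-ethylhexyl) phthalate (DEHP) was described in mice with an intact PPARα gene. The members were the arrays titled as wild-type control (4 mice) and wild-type DEHP at 1150 (4 mice), 8 of the 15 arrays of the series, each from a separate animal. All were males of the 129S1/SvlmJ stock, aged 7.5 months ± 2.5 weeks. The DEHP mice had received 4 daily gavage doses of 1150 mg/kg/day in corn oil, and the control mice corn oil alone. The other 7 arrays came from PPARα-null males (129S4/SvJae-Pparatm1Gonz/J) of the same age, 4 given corn oil and 3 given DEHP. They entered the shared estimate of the spread and a single comparison at the end, in which genotype and substrain cannot be told apart. The study had 1 dose and 1 time point, and the interval between the last dose and the removal of the liver was not stated in what was used here.

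DEHP is a plasticizer whose monoester binds PPARα, a nuclear receptor that pairs with the retinoid X receptor and occupies DNA elements made of a repeated hexamer. Its liver targets import fatty acids, activate them to CoA esters, hydroxylate their ω-end and oxidize them in peroxisomes and mitochondria, and in rodents their induction comes with peroxisome proliferation and liver enlargement. The constitutive androstane receptor CAR and the pregnane X receptor PXR are related receptors that control drug-metabolizing enzymes, and the title of the series names CAR beside PPARα.

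Values are array intensities in arbitrary units, as deposited, and the differences below are DEHP minus corn oil on the log2 scale ± standard error from limma, n = 4 against 4. The words rose, fell and changed are used only of a gene whose p-value, adjusted over all 19938 genes with a probe set of a single symbol, was below 0.05. Where 8 values are given they are in the order of animals WT-52 to WT-55 (corn oil) and WT-56 to WT-59 (DEHP). Of the 19938 genes 770 changed (3.86%), 456 up (2.29%) and 314 down (1.57%), and the groups did not overlap in 2367 (11.9%), 6.1% with DEHP higher and 5.77% with DEHP lower. These percentages are the background for the counts given below, taken over genes of all levels. Most lists had a median level above that of the median gene (5.96 in log2). Among genes at or above that level, tested alone, 597 rose and 504 fell, so the share called was larger among bright genes. Most changes were small: 311 of the 456 rises and 277 of the 314 falls were below 1.5-fold, and 46 rises and 9 falls reached 2-fold. The median difference of all genes was -0.015 and their 5th and 95th percentiles were -0.23 and 0.25. Array medians ran from 44.4 to 46.6, and Pearson's r of log2 values over all probe sets was 0.989 to 0.992 within the corn oil group, 0.990 to 0.991 within the DEHP group and 0.987 to 0.989 between them. The hepatocyte markers marked these samples as liver, with Alb, the gene of serum albumin, at 15342 to 15859 with corn oil and 14796 to 15828 with DEHP.

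**Figure D1:**
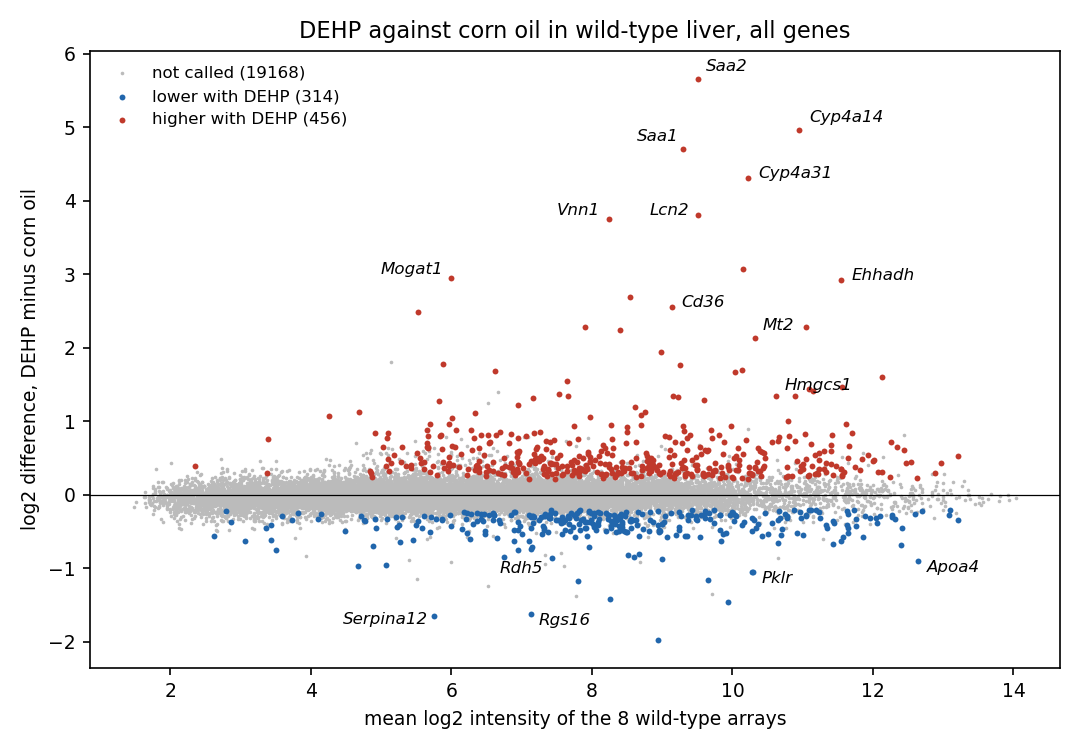
Log2 difference (DEHP minus corn oil) against mean log2 intensity for 19938 genes in wild-type liver, 4 animals a group. Red points are the 456 genes that rose, blue points the 314 that fell and grey points the rest, and the rises reach 5.66 (Saa2) while the largest fall is -1.97 (Serpina4-ps1).

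DEHP animals WT-57 and WT-58 stood apart from the rest. WT-58 had the highest value of the DEHP group in 253 of the 456 genes that rose (55.5%, against 32.5% of all genes), and in 30 of the 46 with at least a 2-fold rise. Those genes were called with the values of WT-58 among them, so that choice may add to the excess, which was not tested. In 8 genes WT-58 was at least 2-fold above every other wild-type mouse, among them Vnn1, Acot1, Acot2, Pex11a and Crat, and 1 gene, Mup21, in which it was as far below. Without WT-58 304 genes rose and 212 fell. That lies within the range over all wild-type animals left out in turn, from 276 rises and 157 falls (without WT-53) to 365 and 249 (without WT-57). In WT-57 22 genes were at least 2-fold above all other wild-type animals, and 3 of them are given with the cell type markers. The other 6 animals had 0 to 2 such genes in either direction. The plot of list medians by animal shows both patterns.

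**Figure D2:**
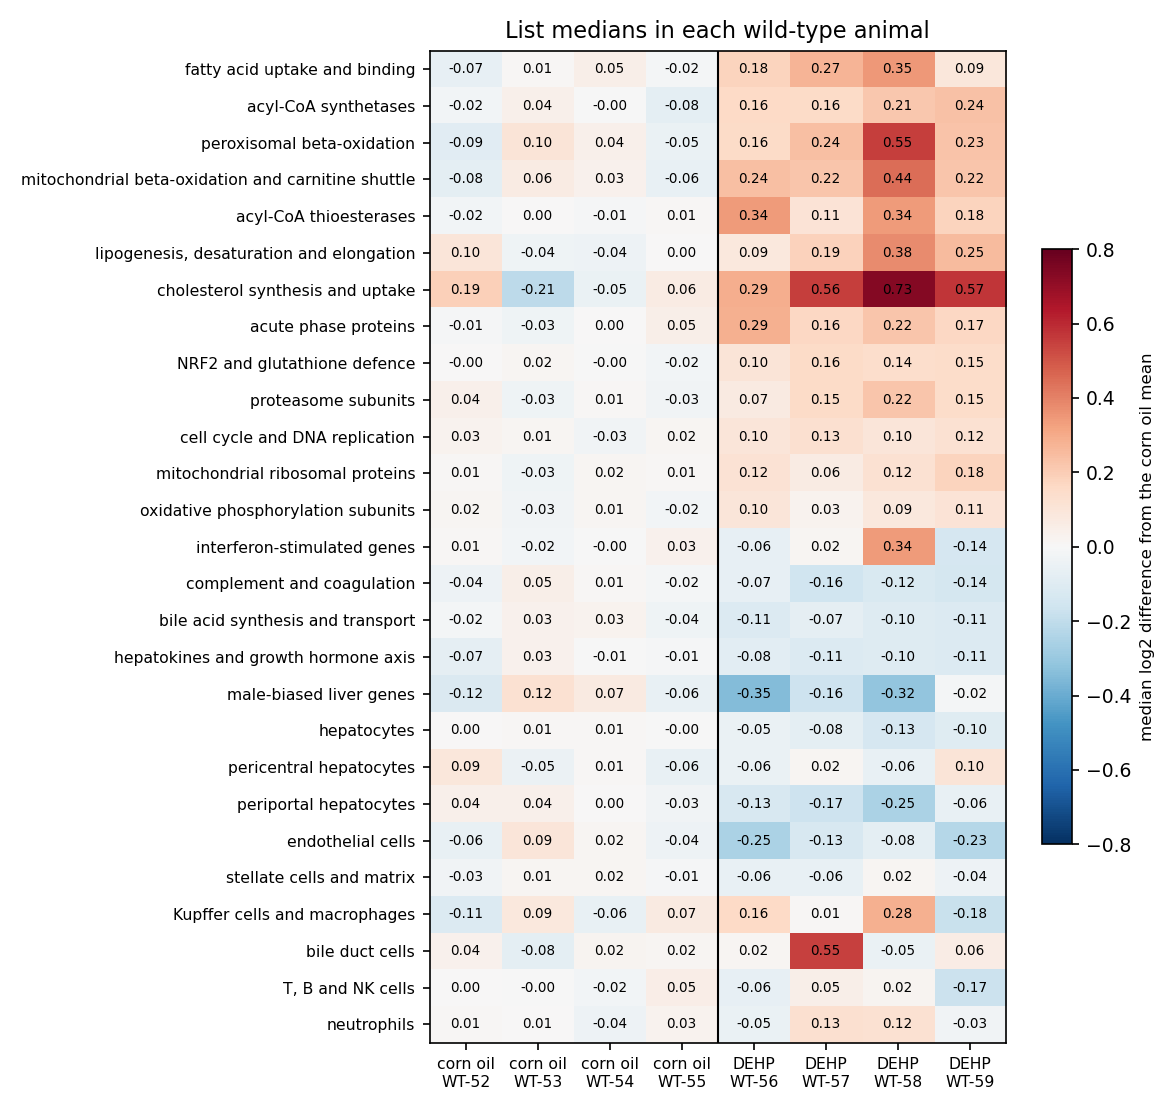
Median log2 difference of the members of 27 gene lists from the corn oil mean, in each of the 8 wild-type animals (columns, corn oil left and DEHP right of the line). WT-58 has the highest DEHP value in the lists of peroxisomal (0.55) and mitochondrial (0.44) oxidation and of interferon-stimulated genes (0.34), and WT-57 stands out in the bile duct markers (0.55).

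The genes of PPARα, CAR and PXR did not pass the test. Ppara itself read 798, 932, 943 and 849.5 with corn oil and 936, 773, 1197 and 751 with DEHP (0.03 ± 0.12, adjusted p = 0.935), and the groups overlapped. Nr1i3, which encodes CAR, stood at 1938 to 2229.5 with corn oil and 1856 to 2438 with DEHP (0.08 ± 0.09, adjusted p = 0.724), and Nr1i2, which encodes PXR, at 398 to 408 with corn oil and 399.7 to 493 with DEHP (0.16 ± 0.07, adjusted p = 0.295). The partner receptor Rxra was at 1193 to 1301 with corn oil and 1022 to 1179 with DEHP, without overlap but short of the threshold (-0.16 ± 0.07, adjusted p = 0.284). Of 14 genes for PPARα, its relatives, partners and coregulators 1 rose and 0 fell (median -0.09), with 1 fall without WT-58. The riser was Pparg, which encodes the fat-cell regulator PPARγ, at 87.0 to 113 with corn oil and 124 to 158 with DEHP (0.51 ± 0.12, adjusted p = 0.0199). Its call was lost without any 1 of WT-52, WT-53, WT-57, WT-58 and WT-59 (adjusted p up to 0.0732). Of 16 other metabolic nuclear receptors 0 rose and 1 fell, Nr1d1, a repressor of the circadian clock, at 1313 to 1556 with corn oil and 797 to 1304 with DEHP (-0.49 ± 0.12, adjusted p = 0.0354). That call was lost without any 1 of WT-52, WT-54, WT-55, WT-56, WT-57 and WT-59 (adjusted p up to 0.0935), and with the wild-type arrays alone.

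Genes of fatty acid entry rose. Of 15 uptake and binding genes 7 rose and 0 fell (median 0.18), where 2.29% and 1.57% of all genes did, and 6 to 7 rose when any 1 animal was left out. Cd36, a membrane importer of long-chain fatty acids, read 223, 248, 242 and 224 with corn oil and 1361, 1274, 1697 and 1205 with DEHP. Every DEHP animal lay above every control, WT-58 highest, and the rise was 5.87-fold (2.55 ± 0.16, adjusted p = 1.86e-07). The transporter Slc27a1 read 98.5, 101.3, 116.5 and 115.1 with corn oil and 154, 185, 284 and 173 with DEHP (1.8-fold, 0.85 ± 0.14, adjusted p = 0.00336). Fabp4, a binding protein better known from fat cells and macrophages, was at 56.4, 54.4, 53.5 and 56.5 with corn oil and 111, 183, 250.1 and 193 with DEHP (3.21-fold, 1.68 ± 0.19, adjusted p = 0.000113), lowest of the DEHP animals in WT-56. Dbi, which carries acyl-CoA through the cytosol, read 2212, 2213, 2299 and 2091 with corn oil and 3244, 3224, 3527 and 3395 with DEHP (1.52-fold, 0.60 ± 0.06, adjusted p = 5.85e-05), and no animal of either group fell among the other. Fabp2, the intestinal relative, rose by 0.61 ± 0.10 (adjusted p = 0.00353). Fabp1, the main fatty acid binding protein of hepatocytes, was already among the brighter genes at 5935, 7254, 7953 and 6762 with corn oil and 8868, 8763, 10038 and 9763 with DEHP and rose 1.35-fold (0.43 ± 0.08, adjusted p = 0.00699). The liver acyl-CoA synthetase and transporter Slc27a2 was at 7822 to 9206 with corn oil and 8901 to 10819.6 with DEHP (0.18 ± 0.07, adjusted p = 0.235).

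The promoter of Fabp1 is shown because it was the only one among the rising genes to hold a direct repeat of the receptor's hexamer with 1 base between, and it was chosen after the search was seen. The sequence is RefSeq's, from GRCm38.p6, chr6:71199779-71199878, plus strand, the 100 bases before the transcript start, with the repeat in capitals at bases 67 to 55 before the start, on the opposite strand.
Fabp1: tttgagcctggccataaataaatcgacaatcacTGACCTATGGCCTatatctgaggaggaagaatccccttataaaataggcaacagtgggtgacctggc
The letters searched were AGGNCA followed by any 1 base and AGGNCA again, on both strands, over the 250 bases before the start of the 15614 measured genes that had a RefSeq promoter. They were found in 58 of these (0.371%), in 1 of 354 genes that rose (0.282%) and in 4 of 235 that fell (1.7%). A match describes the letters only.

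Activation to CoA esters moved in part of the acyl-CoA synthetase list, where 4 of 13 rose and 0 fell (median 0.21). The count was 2 without WT-53, WT-54, WT-55, WT-58 or WT-59. Acsf2, a medium-chain synthetase, read 699.6, 845, 735 and 642 with corn oil and 1206, 1345, 1682 and 1388 with DEHP (1.92-fold, 0.94 ± 0.10, adjusted p = 5.27e-05), and its second probe set gave 0.94 as well. Acss3, which activates short-chain acids, read 278, 227, 219 and 179 with corn oil and 392.1, 404, 522 and 411 with DEHP (1.93-fold, 0.95 ± 0.17, adjusted p = 0.00512). In both genes the groups did not overlap, and WT-58 was highest.

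The ω-hydroxylases of the Cyp4 family held the 2 largest rises outside the acute phase genes, and the family moved both ways, with 5 of 13 up and 2 down (1 without WT-53, WT-54, WT-55, WT-56, WT-58 or WT-59). Cyp4a14 read 278, 733, 323 and 234 with corn oil and 10729, 11014, 11563 and 10787 with DEHP. The DEHP animals lay within a narrow band while control WT-53 stood above the other controls, and the rise was 31.3-fold (4.97 ± 0.44, adjusted p = 9.76e-06). Cyp4a10 read 334, 617, 392.3 and 286 with corn oil and 3234, 3219, 3412 and 3272 with DEHP, a rise of 8.42-fold (3.07 ± 0.21, adjusted p = 7.2e-07), again with WT-53 the highest control. Cyp4a31 was at 208 to 370.3 with corn oil and 5081 to 6037 with DEHP (19.8-fold). The male-biased Cyp4a12b, bright in both groups, was at 3828, 3912, 4024 and 3549 with corn oil and 5772, 6351, 5949 and 7209 with DEHP (1.65-fold, 0.72 ± 0.13, adjusted p = 0.00606), and its neighbour Cyp4a12a at 4484 to 5130.2 with corn oil and 6222 to 7049.6 with DEHP (0.43 ± 0.11, adjusted p = 0.0319), whose call was lost when any 1 animal was left out (adjusted p up to 0.0974). These genes are near-identical copies in part, and probes may be shared between them. In the opposite direction Cyp4f14, a hydroxylase of leukotrienes and fatty acids, read 2035, 2013, 1929.8 and 1893 with corn oil and 1452, 1495, 1188 and 1608 with DEHP and fell by 1.38-fold (-0.46 ± 0.08, adjusted p = 0.00513). The groups did not overlap, with WT-58 lowest.

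**Figure D3:**
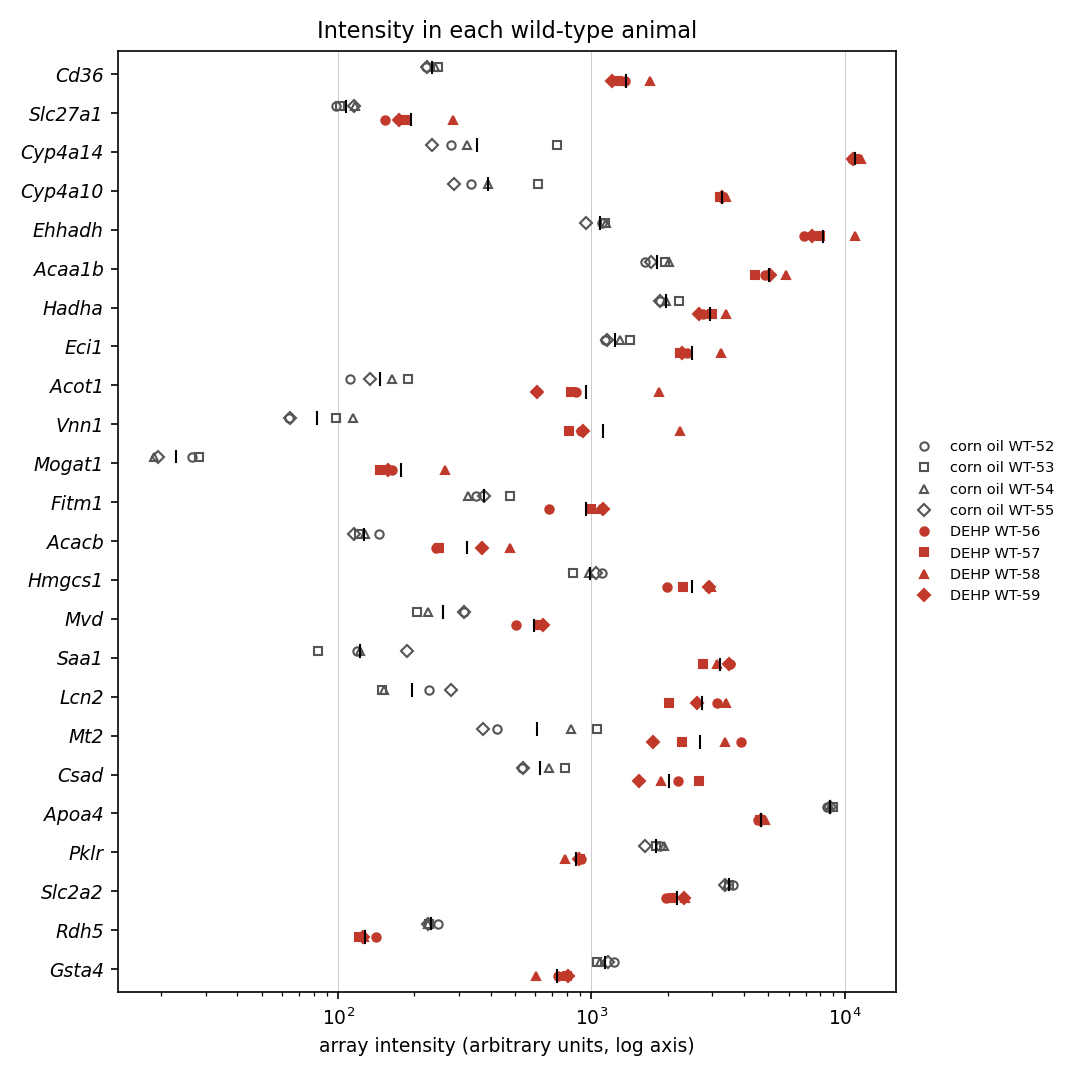
Array intensity (log axis) of 24 genes in each wild-type animal, open grey for corn oil and filled red for DEHP, with a bar at the mean of log2 values. The 24 were picked from genes called in these same arrays. Their groups do not overlap, as in 11.9% of all genes, and that choice favours genes without overlap. Mt2 spreads widely in both groups, from 375 to 1051 with corn oil and 1746 to 3887 with DEHP.

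Peroxisomal β-oxidation shortens very long chain and dicarboxylic fatty acids. Of its 23 measured genes 10 rose and 1 fell (median 0.35), and the number that rose was 6 without WT-55. Without WT-58 8 rose and the median was 0.18. Ehhadh, the bifunctional hydratase and dehydrogenase, read 1106, 1129, 1144 and 955 with corn oil and 6911, 7976, 10987 and 7435 with DEHP (7.58-fold, 2.92 ± 0.15, adjusted p = 6.54e-08), without overlap. Acaa1b, a thiolase for the last step, was at 1626, 1951, 2016 and 1715 with corn oil and 4825, 4427, 5856 and 5059.7 with DEHP (2.76-fold, 1.46 ± 0.15, adjusted p = 6.12e-05). Ech1, a dienoyl-CoA isomerase, was at 2019 to 2587 with corn oil and 3866 to 5211 with DEHP (1.94-fold). Crat, a carnitine acetyltransferase that exports acetyl units, read 303, 327, 309 and 240.0 with corn oil and 519.8, 578, 1211 and 467 with DEHP (1.13 ± 0.22, adjusted p = 0.00882), where WT-58 was more than 2-fold above the other DEHP animals and the rise without it was 0.83 (adjusted p = 0.00388). Hacl1, which shortens branched and hydroxylated acids, was at 2516 to 2898 with corn oil and 3493 to 4093 with DEHP (0.51 ± 0.08, adjusted p = 0.00111). The faller was Pipox, which oxidizes pipecolic acid in peroxisomes and takes no part in chain shortening, at 2414, 2351, 2305 and 2295 with corn oil and 1945, 1899, 1937 and 1886 with DEHP (-0.29 ± 0.06, adjusted p = 0.0102). Abcd2, an importer of very long chain acyl-CoA, read 42.0, 108, 51.3 and 65.01 with corn oil and 203, 206, 315 and 55.01 with DEHP, with WT-59 inside the control range, and did not pass (1.40 ± 0.40, adjusted p = 0.0648). It passed without WT-53 at 1.66 (adjusted p = 0.0464) and without WT-59 at 1.92 (adjusted p = 0.000676), and also with brighter genes only.

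Few genes that build peroxisomes changed. Of 19 assembly and antioxidant genes 2 rose and 0 fell (median 0.04). Pex11a, which elongates peroxisomes before they divide, read 423, 571, 500.3 and 509 with corn oil and 692, 713, 1508 and 713 with DEHP (0.78 ± 0.19, adjusted p = 0.03), with WT-58 more than 2-fold above the others. Its call was lost without any 1 of WT-52, WT-54 and WT-55 (adjusted p up to 0.0887), and with the wild-type arrays alone. The other was Pex3, a membrane protein of early assembly, at 362 to 442 with corn oil and 485 to 583 with DEHP (0.32 ± 0.08, adjusted p = 0.0374), lost without any 1 of WT-52, WT-54, WT-55, WT-56, WT-57, WT-58 and WT-59 (adjusted p up to 0.118), and with the wild-type arrays alone. The membrane channel gene Pxmp2 was at 939 to 1165 with corn oil and 706 to 935 with DEHP (-0.34 ± 0.11, adjusted p = 0.107).

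Mitochondrial β-oxidation genes rose from the import of fatty acids to the last steps of the cycle. Of 26 genes 13 rose and 0 fell (median 0.29), 23 lay above zero, and 9 to 11 rose when any 1 animal was left out. At the entry, the carnitine carrier Slc25a20 read 999, 1366, 1245 and 1125 with corn oil and 1753, 1748, 2659.5 and 1725 with DEHP (1.65-fold, 0.72 ± 0.14, adjusted p = 0.00682), while Cpt1a, the malonyl-CoA-sensitive gate of the pathway, overlapped at 1294, 1751, 1763 and 1443 with corn oil and 1909, 1802, 2145 and 1592 with DEHP (0.26 ± 0.13, adjusted p = 0.33). Acadl, the long-chain dehydrogenase, was at 1349.8 to 1552 with corn oil and 2286 to 3020.1 with DEHP (1.67-fold, 0.74 ± 0.09, adjusted p = 0.000164). Both subunits of the trifunctional protein rose, Hadha at 1868, 2220.4, 1975 and 1864 with corn oil and 2753, 3001, 3397 and 2658 with DEHP (0.57 ± 0.08, adjusted p = 0.00077) and Hadhb at 1647, 1891, 1847 and 1646 with corn oil and 2709, 2602, 3309.6 and 2799.5 with DEHP (0.70 ± 0.08, adjusted p = 0.000138). The isomerase Eci1 and the reductase Decr1, which handle unsaturated chains, were at 1127 to 1419 with corn oil and 2233 to 3233 with DEHP (2.01-fold) and at 1435 to 1758 with corn oil and 2532 to 3428 with DEHP (1.78-fold). The carnitine importer Slc22a5 read 139, 164, 181 and 135 with corn oil and 215, 238, 449 and 185 with DEHP and did not pass (0.73 ± 0.21, adjusted p = 0.0631). It passed without WT-59 at 0.89 (adjusted p = 0.0306), and also with brighter genes only. Among ketone body genes 1 of 9 up and 0 down, Acat1, at 1953 to 2268 with corn oil and 2341 to 2985 with DEHP (0.29 ± 0.08, adjusted p = 0.0463), a call lost without any 1 of WT-52, WT-53, WT-54, WT-55, WT-56, WT-57 and WT-58 (adjusted p up to 0.132), and with quantile normalization or the wild-type arrays alone.

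Acyl-CoA thioesterases release free fatty acids from CoA. Of 15 genes 5 rose and 0 fell (median 0.20), and the count was 3 without WT-52, WT-54, WT-55, WT-56 or WT-58. The cytosolic Acot1 read 112, 189, 164 and 133 with corn oil and 869, 831, 1847 and 608 with DEHP (6.48-fold, 2.70 ± 0.27, adjusted p = 4.56e-05) and the mitochondrial Acot2 read 123.05, 195, 173 and 141 with corn oil and 545, 551, 1696 and 576 with DEHP (4.73-fold, 2.24 ± 0.27, adjusted p = 0.000206). WT-58 exceeded the other DEHP animals more than 2-fold in both, and without it the rises were 2.37 (adjusted p = 1.39e-05) and 1.84 (adjusted p = 1.95e-06). Acot1 and Acot2 are near-identical in sequence and probes may be shared between them. The peroxisomal Acot8 was tighter, at 177, 185, 191 and 199 with corn oil and 251, 248, 337 and 262 with DEHP (1.45-fold, 0.53 ± 0.10, adjusted p = 0.00568). Acot3, a close relative, read 68.7, 52.2, 59.2 and 59.8 with corn oil and 198, 92.3, 343 and 65.02 with DEHP, from the control range in WT-59 up to WT-58, and did not pass (1.25 ± 0.38, adjusted p = 0.0881). It passed without WT-59 at 1.63 (adjusted p = 0.0179), and also with brighter genes only.

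In CoA turnover 3 of 13 genes rose and 0 fell (median 0.07). Vnn1, which splits pantetheine into pantothenate and cysteamine, read 64.0, 97.9, 114.8 and 64.3 with corn oil and 909, 812, 2230.1 and 929 with DEHP (13.5-fold, 3.75 ± 0.27, adjusted p = 7.2e-07), and without WT-58 the difference was 3.42 (adjusted p = 1.31e-07). At the other end Pank3, a pantothenate kinase that starts CoA synthesis, read 398, 398, 402 and 426 with corn oil and 498, 526, 584 and 539 with DEHP (0.40 ± 0.08, adjusted p = 0.00747). In both genes the groups did not overlap.

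Lipid storage genes rose in a few places. Of 22 droplet proteins and lipases 4 rose and 0 fell (median 0.14). Hsd17b11, a droplet-bound dehydrogenase, read 1284, 1494, 1561 and 1244 with corn oil and 3190.3, 3501, 4865 and 3428 with DEHP (2.66-fold, 1.41 ± 0.12, adjusted p = 6.37e-06), Fitm1, which helps to form droplets, read 350.3, 475, 327 and 376 with corn oil and 678, 998, 1083 and 1114 with DEHP (2.51-fold, 1.33 ± 0.23, adjusted p = 0.00325), and Ces1d, a triglyceride hydrolase, was at 2384 to 2594 with corn oil and 3937 to 5022 with DEHP (1.79-fold). The droplet coat gene Plin2 read 1344, 2020.5, 1908 and 1323 with corn oil and 1420.1, 1456, 2962 and 1528 with DEHP, where WT-58 alone lay above all controls, and did not pass (0.11 ± 0.21, adjusted p = 0.858). Among 24 genes of glycerolipid and phospholipid synthesis 1 rose and 1 fell. Mogat1, a monoacylglycerol acyltransferase that is dim in normal liver, went from 26.5, 28.3, 18.7 and 19.4 to 164, 146, 264 and 157 (7.76-fold, 2.96 ± 0.17, adjusted p = 9.17e-08). Pemt, which methylates phosphatidylethanolamine to phosphatidylcholine, fell from 5241, 5434, 5401 and 5819 to 4604, 4499.7, 4409 and 4302 (-0.30 ± 0.06, adjusted p = 0.00904).

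Lipogenesis and desaturation rose in 7 of 26 genes and fell in 0 (median 0.22). The number that rose was 4 without WT-53, WT-54, WT-55, WT-58 or WT-59, and 1 fell without WT-59. Acacb, the acetyl-CoA carboxylase whose malonyl-CoA restrains mitochondrial import, read 145, 120.9, 128 and 115.3 with corn oil and 244, 251, 478 and 369 with DEHP (2.54-fold, 1.35 ± 0.16, adjusted p = 0.000164). The malic enzyme Me1, a source of NADPH, was at 2240.5, 2238, 1961 and 1828 with corn oil and 2898, 3516, 4668 and 3578 with DEHP (0.81 ± 0.14, adjusted p = 0.00455), and Elovl5, which elongates polyunsaturated acids, at 2509, 2866, 2528 and 2392 with corn oil and 3812, 3774, 4739 and 4091 with DEHP (0.67 ± 0.08, adjusted p = 0.000161). In these 3 genes WT-58 was the highest animal and the groups did not overlap. Fasn, the fatty acid synthase, overlapped at 1355, 901, 1000.2 and 1277 with corn oil and 1173, 1264, 1764 and 1359.8 with DEHP (0.30 ± 0.16, adjusted p = 0.383), as did its regulator Srebf1 at 938, 943, 906 and 1508 with corn oil and 804, 818, 1158 and 908 with DEHP (-0.20 ± 0.22, adjusted p = 0.732). Scd1, which makes monounsaturated fatty acids, read 5381, 3814, 4099 and 3732 with corn oil and 7975, 7704, 7851 and 6220.4 with DEHP. These groups did not overlap, yet the test gave 0.81 ± 0.58 (adjusted p = 0.543). The spread is estimated over all 15 arrays, and the null arrays ran from 349 to 3289. With the 8 wild-type arrays alone the difference was 0.81 ± 0.12 (adjusted p = 0.00717).

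Cholesterol synthesis was the list with the highest share of rises. Of 21 genes 12 rose and 0 fell (median 0.53), and 10 to 12 rose when any 1 animal was left out. Hmgcs1, which condenses the building block of the pathway, read 1099, 845, 975 and 1039 with corn oil and 1983, 2294, 2960.0 and 2898 with DEHP (2.54-fold, 1.34 ± 0.14, adjusted p = 7.9e-05). The mevalonate enzymes Pmvk and Mvd read 543, 403, 391 and 493 with corn oil and 774, 798, 994 and 932 with DEHP (0.94 ± 0.14, adjusted p = 0.0014) and 314, 204, 226 and 315 with corn oil and 503, 616, 622 and 642 with DEHP (1.19 ± 0.16, adjusted p = 0.000517). Idi1, which isomerizes the product of Mvd, was at 1808 to 2444 with corn oil and 2838 to 3816 with DEHP (0.68 ± 0.12, adjusted p = 0.00377), and Cyp51, the sterol demethylase, at 516 to 697 with corn oil and 978 to 1199 with DEHP (1.84-fold). In Hmgcs1, Mvd, Pmvk and Cyp51 WT-56 was the lowest DEHP animal, and each stayed above all controls. The squalene epoxidase Sqle spread widely among controls at 996, 632, 718 and 994, read 1035, 1204, 1307 and 1213 with DEHP, and did not pass (0.53 ± 0.15, adjusted p = 0.0649). It passed without WT-52 at 0.63 (adjusted p = 0.0469), and also with brighter genes only.

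Hmgcs1 was the only gene of the 354 rising genes with a RefSeq promoter that held the sterol element TCACCCCAC, on which sterol-regulated transcription factors act, and it is shown for that reason. The 89 bases are chr13:119690174-119690262 of GRCm38.p6, plus strand, with the element in capitals.
Hmgcs1: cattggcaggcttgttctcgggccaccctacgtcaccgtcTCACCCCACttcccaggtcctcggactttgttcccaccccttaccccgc
The same letters, on either strand, were in 92 of the 15614 promoters searched (0.589%) and in 5 of the 235 of genes that fell (2.13%).

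Lipoprotein genes moved both ways, with 3 of 23 up and 2 down (median -0.07), and the falls numbered 1 without WT-52, WT-53, WT-54, WT-55, WT-56, WT-58 or WT-59. Pltp, the phospholipid transfer protein, read 341, 353, 305 and 441 with corn oil and 821, 934, 1266 and 687 with DEHP (2.53-fold, 1.34 ± 0.17, adjusted p = 0.000319) and Lipg, the endothelial lipase, read 93.3, 63.9, 77.8 and 91.5 with corn oil and 184, 167, 253 and 166 with DEHP (2.34-fold, 1.23 ± 0.15, adjusted p = 0.0002). Apoa4, an apolipoprotein of triglyceride-rich particles, fell from 8471, 8956, 8708 and 8771 to 4554, 4629.6, 4865 and 4679. The groups stayed far apart, 1.86-fold lower (-0.90 ± 0.06, adjusted p = 1.86e-07), with the lowest adjusted p of all falls. The apolipoprotein gene Apoc3, an inhibitor of triglyceride clearance, was at 9244 to 9562 with corn oil and 8062 to 8231 with DEHP (-0.21 ± 0.05, adjusted p = 0.03), a call lost when any 1 animal was left out (adjusted p up to 0.0856). Angptl4, an inhibitor of lipoprotein lipase, overlapped at 476, 579, 811 and 410.3 with corn oil and 371, 408, 936 and 383 with DEHP (-0.19 ± 0.26, adjusted p = 0.8).

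Of 26 bile acid genes 2 rose and 3 fell (median -0.12), and the rises numbered 0 without WT-54, WT-55, WT-56 or WT-58 and 1 without WT-52, WT-53, WT-57 or WT-59. Cyp7a1, which limits the rate of bile acid synthesis, read 883, 488, 608 and 460.5 with corn oil and 2727, 1080.3, 1809 and 2368 with DEHP (3.2-fold, 1.68 ± 0.41, adjusted p = 0.0331), without overlap. Its call was lost without any 1 of WT-53, WT-54, WT-55, WT-56, WT-58 and WT-59 (adjusted p up to 0.0979), and with an intensity trend and robust spread. Abcb11, the bile salt export pump, fell from 3914, 3999, 3996 and 3608 to 2909, 3284, 2892 and 3307 (-0.33 ± 0.07, adjusted p = 0.0124). Slco1a4, an uptake carrier of organic anions, read 1193, 1044, 1261 and 1295 with corn oil and 839, 643, 382 and 406 with DEHP (2.22-fold lower, -1.15 ± 0.20, adjusted p = 0.00337). Another carrier of organic anions outside this list, Slc22a7, was at 529.8, 622, 469.7 and 466 with corn oil and 267, 236, 258 and 423 with DEHP (-0.85 ± 0.18, adjusted p = 0.0134), and its call was lost without WT-53 (adjusted p = 0.053). Nr0b2, the bile acid-responsive repressor SHP, read 632, 517, 656 and 645 with corn oil and 377, 622, 228 and 769 with DEHP, with DEHP animals on both sides of the controls, and did not pass (-0.44 ± 0.31, adjusted p = 0.548).

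The xenobiotic cytochromes P450 moved in both directions. Of 40 genes 5 rose and 8 fell (median -0.09). The rises numbered 2 without WT-54 and 3 without WT-53, WT-55, WT-56 or WT-57, and the falls 2 without WT-52 or WT-54, 3 without WT-53, WT-55 or WT-58 and 4 without WT-56 or WT-57. With the wild-type arrays alone 7 of the 40 rose and 5 fell, so the balance of rises and falls turned round. Cyp3a11, the main PXR-regulated enzyme of mouse liver, read 3489, 3575, 3404 and 3513 with corn oil and 4729, 5103, 4412 and 5091 with DEHP (1.38-fold, 0.47 ± 0.09, adjusted p = 0.00749), and its relative Cyp3a13 read 1131, 999, 1057 and 1059.8 with corn oil and 1844, 1508, 1659.6 and 1619 with DEHP (1.56-fold, 0.64 ± 0.11, adjusted p = 0.00276). Cyp2b10, the usual marker of CAR activity, read 287, 303, 305 and 280.3 with corn oil and 437, 321, 409 and 465 with DEHP, every DEHP animal above every control, and did not pass (0.46 ± 0.15, adjusted p = 0.115). Cyp2c55 read 33.3, 24.99, 27.1 and 29.2 with corn oil and 38.6, 45.3, 34.2 and 48.9 with DEHP, also without overlap (0.54 ± 0.16, adjusted p = 0.0716). With the wild-type arrays alone both passed, Cyp2b10 at 0.46 ± 0.10 (adjusted p = 0.0418) and Cyp2c55 at 0.54 ± 0.12 (adjusted p = 0.0401). Cyp1a1, the marker of the aryl hydrocarbon receptor, overlapped at 15.9 to 21.5 with corn oil and 18.3 to 21.4 with DEHP (0.04 ± 0.12, adjusted p = 0.911). Cyp2c70, which makes muricholic acids, fell from 7139, 6853, 7098 and 6353 to 4250.2, 4279.6, 3162 and 5797 (-0.68 ± 0.14, adjusted p = 0.0135), and Cyp2u1, a fatty acid hydroxylase, from 771, 799, 769.6 and 781 to 562, 535, 446 and 578 (-0.56 ± 0.09, adjusted p = 0.00235). WT-58 was the lowest animal in both. Cyp1a2 was at 5302 to 6259 with corn oil and 4189 to 4903 with DEHP (-0.32 ± 0.08, adjusted p = 0.0286), a call lost without any 1 of WT-52, WT-54, WT-56 and WT-58 (adjusted p up to 0.0886).

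Conjugating and detoxifying enzymes rose and fell by gene. Of 20 glutathione transferases 4 rose and 1 fell. Gstm4 read 974, 919, 870.4 and 864 with corn oil and 1223, 1442, 1998 and 1500.4 with DEHP (1.67-fold, 0.74 ± 0.13, adjusted p = 0.00325), while Gsta4, which conjugates products of lipid peroxidation, fell from 1229, 1053, 1086 and 1166 to 738, 803, 605 and 807 (-0.63 ± 0.11, adjusted p = 0.00496). Of 22 glucuronosyltransferases and sulfotransferases 2 rose and 1 fell. The rises numbered 1 without WT-55, and the fall 0 without WT-52, WT-53, WT-54, WT-55 or WT-58 and with the wild-type arrays alone. Among the rises was Ugt3a1, which transfers N-acetylglucosamine, at 482, 499, 585 and 431 with corn oil and 1239.7, 1107, 1339 and 1182 with DEHP (2.45-fold, 1.29 ± 0.19, adjusted p = 0.00104). Of 20 aldehyde dehydrogenases 3 rose and 0 fell. Aldh3a2, the fatty aldehyde dehydrogenase that completes ω-oxidation, read 1109.6, 1308, 1269 and 1093 with corn oil and 2456, 2822, 4469.5 and 2658 with DEHP (2.53-fold, 1.34 ± 0.17, adjusted p = 0.000262), WT-58 highest. Of 31 genes of glutathione and NRF2 defence 7 rose and 0 fell (median 0.13), and the rises numbered 3 without WT-53 or WT-55 and 4 without WT-54 or WT-58. The biliverdin reductase Blvrb was at 633 to 679 with corn oil and 826 to 1156 with DEHP (0.60 ± 0.09, adjusted p = 0.00163) and the epoxide hydrolase Ephx2, which also acts on fatty acid epoxides, at 2869.7 to 3309 with corn oil and 3989.8 to 5233 with DEHP (0.49 ± 0.09, adjusted p = 0.00414).

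Acute phase genes held the largest rise of all. Of 27 genes 7 rose and 0 fell (median 0.28), and 7 rose whichever animal was left out. Saa2, a serum amyloid A apolipoprotein, went from 103, 70.7, 114 and 135 to 5868, 4738, 4665 and 5662, 50.6-fold higher (5.66 ± 0.62, adjusted p = 9.3e-05). Saa1 went from 118.4, 83.5, 121.7 and 187 to 3520.0, 2762, 3126 and 3489, 26.2-fold higher (4.71 ± 0.58, adjusted p = 0.000215). Lcn2, which binds bacterial siderophores, read 229, 149, 152 and 279 with corn oil and 3134, 2031, 3392 and 2619 with DEHP (14.1-fold, 3.81 ± 0.59, adjusted p = 0.00155) and the haemoglobin binder Hp read 8033, 7567, 7866 and 8049.7 with corn oil and 11901, 10617, 12124 and 10756 with DEHP (1.44-fold, 0.52 ± 0.11, adjusted p = 0.0123). Orm2, an orosomucoid, was at 193 to 328 with corn oil and 772 to 1312 with DEHP (3.84-fold). Beyond the 7 called, Orm1 and S100a8 among them, the other members did not pass. Chosen after their values were seen, the fibrinogen chains Fgb and Fgg overlapped their controls, Fgb at 9052 to 9808 with corn oil and 8637 to 9651 with DEHP (-0.04 ± 0.06, adjusted p = 0.815) and Fgg at 8114 to 8546 with corn oil and 7755 to 8562 with DEHP (-0.03 ± 0.07, adjusted p = 0.873), and Saa3, made mainly by macrophages and fat cells, was at 79.2, 57.6, 83.8 and 76.8 with corn oil and 173, 84.7, 87.8 and 81.2 with DEHP (0.46 ± 0.32, adjusted p = 0.536), with WT-56 above the rest. Outside the list, Fgl1, a hepatocyte-secreted fibrinogen-like protein, read 973, 961, 587 and 1551 with corn oil and 5851, 3777, 5088 and 4209 with DEHP (4.86-fold, 2.28 ± 0.43, adjusted p = 0.00626). None of the 24 genes of STAT3 signalling was called, with 0 up and 0 down (median -0.05), Cish at 63.8, 263, 155 and 154 with corn oil and 57.7, 42.6, 91.2 and 57.2 with DEHP having the largest difference (-1.24 ± 0.37, adjusted p = 0.0802). At an unadjusted p below 0.05 limma gave 6 of them, and Cish passed without WT-52 at -1.62 (adjusted p = 0.014). With brighter genes only 1 of the list rose and 1 fell, the latter being Cish. With the wild-type arrays alone 1 rose and 0 fell.

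Saa1 and Saa2 are near-identical neighbours, and probes may be shared between them. Their promoters are shown side by side because the pair rose together. Over the 250 bases before the start they matched in 238 of 251 aligned columns (94.8%). The last 120 bases before each start are printed, from GRCm38.p6, chr7:46742981-46743100 (minus strand) for Saa1 and chr7:46751713-46751832 (plus strand) for Saa2, with differing bases, or a base that the other gene lacks, in capitals.
Saa1: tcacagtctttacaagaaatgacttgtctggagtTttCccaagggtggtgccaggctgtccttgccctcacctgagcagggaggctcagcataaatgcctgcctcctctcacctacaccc
Saa2: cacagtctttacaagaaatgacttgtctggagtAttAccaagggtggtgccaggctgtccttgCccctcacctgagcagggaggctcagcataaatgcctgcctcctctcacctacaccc

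The metallothioneins, which bind zinc and copper, rose with a wide spread. Mt2 read 424, 1051, 828.95 and 375 with corn oil and 3887, 2286, 3356 and 1746 with DEHP (4.4-fold, 2.14 ± 0.44, adjusted p = 0.0123) and Mt1 read 960.4, 1999, 1567 and 1035 with corn oil and 4937, 2908, 4741 and 2485 with DEHP (2.71-fold, 1.44 ± 0.35, adjusted p = 0.0295). In both genes WT-53 and WT-54 were the high controls and WT-56 and WT-58 the high DEHP animals. The call of Mt1 was lost without any 1 of WT-52, WT-54, WT-55, WT-56 and WT-58 (adjusted p up to 0.0896), and with an intensity trend and robust spread. The zinc transporter Slc39a5 was tighter at 64.5, 69.2, 62.6 and 62.4 with corn oil and 135, 97.6, 131 and 98.5 with DEHP (1.77-fold, 0.82 ± 0.10, adjusted p = 0.000164), and Slc39a4, the intestinal type, lay lower with DEHP at 534 to 642 with corn oil and 357 to 478 with DEHP (-0.47 ± 0.10, adjusted p = 0.0161), a call lost without either of WT-53 and WT-56 (adjusted p up to 0.0599).

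Among complement and coagulation genes more fell than rose. Of 40 genes 9 fell and 1 rose (median -0.12), and the falls numbered 4 without WT-53 or WT-54 and 5 without WT-55. F11, coagulation factor XI, fell from 777, 862, 812 and 724 to 468, 518, 495 and 699 (-0.56 ± 0.10, adjusted p = 0.00414). F5, factor V, went from 1756, 1887, 1906 and 1682 to 1429.7, 1509, 1359 and 1424 (-0.34 ± 0.07, adjusted p = 0.0119) and C1s1, a protease of the complement start, from 1532, 1626, 1498 and 1383 to 1123, 1084, 1067 and 1306 (-0.40 ± 0.08, adjusted p = 0.00732). The riser, the mannose-binding lectin Mbl1, was at 783 to 919 with corn oil and 1074 to 1175 with DEHP (0.38 ± 0.10, adjusted p = 0.0393), a call lost when any 1 animal was left out (adjusted p up to 0.12), and with quantile normalization.

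Some genes of glucose handling fell. Of 31 genes 6 fell and 1 rose (median -0.02), and 5 to 6 fell when any 1 animal was left out. Pklr, the liver pyruvate kinase, read 1869, 1795, 1928 and 1630.1 with corn oil and 913, 903, 788 and 893 with DEHP (2.06-fold lower, -1.05 ± 0.15, adjusted p = 0.000837). Slc2a2, the glucose transporter of hepatocytes, went from 3620.4, 3496, 3426 and 3382 to 1977, 2101, 2349 and 2326 (-0.67 ± 0.08, adjusted p = 0.000126) and Slc37a4, which brings phosphorylated glucose to its phosphatase, from 2030.2, 1943, 2006 and 2069.8 to 1360.3, 1276, 1173 and 1303 (-0.66 ± 0.08, adjusted p = 0.000164). Pygl, the liver glycogen phosphorylase, was at 2723 to 3078 with corn oil and 2099.5 to 2361 with DEHP (-0.41 ± 0.06, adjusted p = 0.00147). The riser was Pdk4, a kinase that turns off pyruvate dehydrogenase, at 71.1, 53.1, 52.5 and 45.2 with corn oil and 122.6, 113, 107 and 133 with DEHP (2.17-fold, 1.12 ± 0.23, adjusted p = 0.0127). Txnip, a sugar-responsive regulator of glucose uptake named after its values were seen, fell from 793, 867, 1269.6 and 767 to 592, 667, 700.2 and 498 (-0.57 ± 0.14, adjusted p = 0.0371), and its relative Arrdc3 from 1666, 1639, 2401 and 1564 to 1112, 1183, 739 and 583 (-1.04 ± 0.21, adjusted p = 0.00873). The call of Txnip was lost without any 1 of WT-53, WT-54, WT-56 and WT-59 (adjusted p up to 0.112), and with the wild-type arrays alone.

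Of 40 genes of the urea cycle and amino acid breakdown 7 fell and 1 rose (median -0.06), and the falls numbered 3 without WT-52, WT-53 or WT-58 and 4 without WT-54 or WT-57. Prodh, which starts proline breakdown, read 2179, 1788, 1879 and 2152 with corn oil and 1373, 1379, 1243 and 1487 with DEHP (-0.54 ± 0.08, adjusted p = 0.000771), Hal, which starts histidine breakdown, 3747, 3747, 3324 and 3774 with corn oil and 2966, 2687, 2479 and 2872 with DEHP (-0.41 ± 0.08, adjusted p = 0.00749), and Cbs, the cystathionine synthase, 3281, 3138, 3037 and 3048 with corn oil and 2607, 2647, 2198 and 2386 with DEHP (-0.35 ± 0.07, adjusted p = 0.00665). Csad, which decarboxylates cysteine sulfinic acid on the way to taurine, was the exception at 534, 784, 679 and 537 with corn oil and 2188, 2653, 1887 and 1537 with DEHP (3.24-fold, 1.70 ± 0.23, adjusted p = 0.000531). The groups did not overlap in any of these 4 genes. Of 30 hepatokines and growth hormone genes 4 fell and 0 rose, and the falls numbered 1 without WT-53, WT-56 or WT-58 and 2 without WT-54. The hormone gene Fgf21 overlapped at 64.2, 80.5, 117.7 and 70.0 with corn oil and 126, 84.6, 78.7 and 71.9 with DEHP (0.13 ± 0.17, adjusted p = 0.801). Igf1 was at 1371, 1675, 1499 and 1584 with corn oil and 1300.1, 1355, 1212 and 1291 with DEHP, lower without overlap but short of the threshold (-0.25 ± 0.08, adjusted p = 0.0869). Igf1 passed with quantile normalization at -0.30 (adjusted p = 0.032), with brighter genes only and with an intensity trend and robust spread. Serpina12, the adipokine vaspin, read 57.7, 159.6, 142 and 64.0 with corn oil and 24.5, 30.7, 23.5 and 48.6 with DEHP (3.14-fold lower, -1.65 ± 0.30, adjusted p = 0.00522).

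Other large falls had mixed functions. Rdh5, a retinol dehydrogenase, had tight values at 248, 228, 227 and 227 with corn oil and 141, 120.7, 126 and 126 with DEHP (1.81-fold lower, -0.86 ± 0.06, adjusted p = 7.2e-07). Rgs16, a regulator of G protein signalling with a daily rhythm, went from 269.9, 186, 518 and 141 to 86.1, 83.5, 73.0 and 78.7 (-1.62 ± 0.31, adjusted p = 0.00751), its spread lying in the controls. Spry4, an inhibitor of receptor tyrosine kinase signalling, went from 133, 135, 139 and 174 to 80.2, 88.5, 78.5 and 75.1 (-0.85 ± 0.10, adjusted p = 0.0002). The imprinted noncoding RNA Meg3 went from 441, 297, 298 and 319 to 132, 162, 113 and 196 (-1.18 ± 0.19, adjusted p = 0.00209). The G protein subunit Gna14 and the interferon regulatory factor Irf5 were at 147 to 187 with corn oil and 82.6 to 120.5 with DEHP (-0.75 ± 0.11, adjusted p = 0.000987) and 147 to 219.6 with corn oil and 97.6 to 127 with DEHP (-0.73 ± 0.11, adjusted p = 0.00111). Among rises outside the lists, Serinc2, a membrane protein, read 114, 123.2, 102 and 96.9 with corn oil and 481, 477, 808 and 427 with DEHP (4.89-fold, 2.29 ± 0.16, adjusted p = 7.2e-07) and Ctse, an aspartic protease, 303, 368, 358 and 299 with corn oil and 1067, 999, 1722 and 867 with DEHP (3.4-fold, 1.76 ± 0.19, adjusted p = 7.68e-05). Gm15441, a noncoding gene, read 15.4, 21.99, 22.2 and 19.4 with corn oil and 55.8, 61.4, 649 and 64.4 with DEHP, with WT-58 10-fold above the other DEHP animals. Its rise of 2.48 ± 0.54 (adjusted p = 0.0172) was 1.63 (adjusted p = 1.39e-05) without WT-58, and the call was lost without WT-52 (adjusted p = 0.0509), and with log2(value + 32) or the wild-type arrays alone.

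Sex-biased genes were counted because many liver enzymes differ between male and female mice. Of 23 male-biased genes 3 rose and 4 fell, and of 23 female-biased genes 2 rose and 1 fell. The male-biased falls numbered 1 without WT-53, WT-54, WT-55, WT-56, WT-57 or WT-58. The female-biased rises numbered 0 without WT-53 or WT-54, 1 without WT-52, WT-55, WT-56, WT-57 or WT-58 and 4 without WT-59. The male-specific steroid dehydrogenase Hsd3b5 read 1405, 1953, 1804 and 1423 with corn oil and 383, 672, 305 and 1563 with DEHP (-1.46 ± 0.36, adjusted p = 0.0319). WT-59 lay within the control range, and the call was lost without any 1 of WT-52, WT-53, WT-54, WT-55, WT-56, WT-57 and WT-58 (adjusted p up to 0.0985), and with an intensity trend and robust spread or the wild-type arrays alone. Among female-biased genes the peroxisomal hydroxy acid oxidase Hao2 read 16.9, 12.2, 10.99 and 13.4 with corn oil and 37.6, 33.5, 35.9 and 13.1 with DEHP (1.07 ± 0.27, adjusted p = 0.0392), with WT-59 again among the controls and a call lost without any 1 of WT-53, WT-54, WT-55, WT-56, WT-57 and WT-58 (adjusted p up to 0.117), and with an intensity trend and robust spread or the wild-type arrays alone. Of 20 clock genes 2 fell and 0 rose, Nr1d1 and Rgs16 being the falls. The falls numbered 1 without WT-52, WT-54, WT-55, WT-56, WT-57 or WT-59, and without WT-58 3 fell and 1 rose.

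Stress-related lists moved in few members. Of 37 heat shock and endoplasmic reticulum genes 4 rose and 3 fell. The rises numbered 1 without WT-52, WT-53, WT-54, WT-58 or WT-59 and 2 without WT-55, and the falls 1 without WT-53, WT-56 or WT-58. Hspb1, a small heat shock protein, read 105, 106, 93.8 and 98.8 with corn oil and 154, 164, 203 and 186 with DEHP (1.74-fold, 0.80 ± 0.14, adjusted p = 0.0047), while Pdia6, a disulfide isomerase of the reticulum, fell from 2152, 2406, 2211 and 2220.4 to 1664, 1829, 1776 and 1934 (-0.32 ± 0.06, adjusted p = 0.00809). Of 22 growth arrest genes and p53 targets 3 rose and 1 fell, falls being 0 without WT-54, WT-55, WT-57 or WT-59 and 2 without WT-56. Gadd45b, a stress-response regulator of growth, read 49.3, 54.3, 56.3 and 46.1 with corn oil and 96.7, 85.8, 81.7 and 64.3 with DEHP (1.58-fold, 0.66 ± 0.12, adjusted p = 0.00414), and its relative Gadd45a moved the other way at 139.7 to 186 with corn oil and 111 to 136 with DEHP (-0.38 ± 0.09, adjusted p = 0.0289), a call lost without any 1 of WT-52, WT-54, WT-55, WT-57 and WT-59 (adjusted p up to 0.0928), and with the wild-type arrays alone. Of 32 lysosome and autophagy genes 5 rose and 0 fell, 3 without WT-52, WT-54, WT-55, WT-56, WT-57 or WT-58, with Gaa, the lysosomal glucosidase, at 747, 796, 784 and 731 with corn oil and 937, 1017, 1061 and 872 with DEHP (0.34 ± 0.06, adjusted p = 0.00561). Of 21 genes of NAD synthesis 2 rose and 1 fell, rises being 1 without WT-53, WT-56, WT-58 or WT-59 and falls 0 without WT-53, WT-54, WT-56 or WT-57. The NAD kinase Nadk was at 1162 to 1206 with corn oil and 1354 to 1653 with DEHP (0.32 ± 0.07, adjusted p = 0.014).

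Some large lists shifted by little in most of their members. Of 31 proteasome subunits 30 lay above zero (median 0.15), of which 5 passed. The passing count was 1 without WT-53, 2 without WT-55, WT-56 or WT-58 and 3 without WT-57 or WT-59. Psmb7, a catalytic subunit, read 2131, 2193, 2207 and 2061 with corn oil and 2575, 2590.1, 2693 and 2649 with DEHP (0.29 ± 0.05, adjusted p = 0.00414). Of 54 mitochondrial ribosomal proteins 47 lay above zero (median 0.12) and 5 passed, 0 without WT-53, WT-55, WT-56 or WT-58, 1 without WT-52, WT-54 or WT-59 and 2 without WT-57. Of 42 oxidative phosphorylation subunits 34 lay above zero (median 0.08) and 2 passed, 0 without WT-53 or WT-55 and 1 without WT-52, WT-56, WT-57, WT-58 or WT-59. Cell cycle and replication genes are dim in this tissue. Of 41 measured 34 lay above zero (median 0.13) and 1 passed, the replicative helicase subunit Mcm4 at 40.9, 41.9, 36.9 and 48.8 with corn oil and 54.1, 52.9, 61.3 and 61.0 with DEHP (0.45 ± 0.11, adjusted p = 0.0359), a call lost without any 1 of WT-52, WT-53, WT-54, WT-56, WT-58 and WT-59 (adjusted p up to 0.11). With the wild-type arrays alone 5 of the 41 rose and 0 fell, and at an unadjusted p below 0.05 limma gave 12 in either direction. Mki67, the proliferation marker, was at 22.01, 21.5, 19.1 and 22.2 with corn oil and 20.7, 27.1, 24.7 and 26.7 with DEHP (0.22 ± 0.11, adjusted p = 0.307). The medians of the DEHP animals lay above those of all controls in each of these 4 lists, 0.07 to 0.22 for the proteasome and 0.10 to 0.13 for the cell cycle.

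Markers of liver cell types were counted to show what the tissue held. Hepatocyte markers gave 0 rises and 1 fall of 10, with a summed intensity of 98516 to 99118 with corn oil and 91306 to 95192 with DEHP. The faller was Cps1, which starts the urea cycle, at 10118 to 11020.2 with corn oil and 7904 to 8916 with DEHP (-0.34 ± 0.08, adjusted p = 0.019), a call lost without any 1 of WT-52, WT-53, WT-54, WT-56 and WT-58 (adjusted p up to 0.0616). Periportal markers gave 0 rises and 3 falls of 13 (median -0.18), with Pigr, the carrier of IgA into bile, at 3658, 4329, 4197 and 3859 with corn oil and 3214, 2869, 3222 and 2665 with DEHP (-0.42 ± 0.08, adjusted p = 0.00561) and Cyp2f2 at 8939 to 10056 with corn oil and 7516 to 8855 with DEHP (-0.27 ± 0.07, adjusted p = 0.0487), lost without any 1 of WT-52, WT-53, WT-54, WT-55, WT-56, WT-57 and WT-58 (adjusted p up to 0.136), and with the wild-type arrays alone. Pericentral markers gave 1 rise and 2 falls of 16 (median 0.02), the rises being 2 without WT-52 and the falls 1 without WT-52, WT-54, WT-56 or WT-58. Gulo, of the vitamin C pathway, fell from 3965, 3842, 3894 and 3603 to 2615, 2697, 2520.2 and 2834 (-0.52 ± 0.07, adjusted p = 0.000252), Aldh1a1, a retinal dehydrogenase, was at 6658 to 7119 with corn oil and 8221 to 8866 with DEHP (0.30 ± 0.06, adjusted p = 0.00699), and the defining genes Glul and Cyp2e1 overlapped at 3551 to 4144 with corn oil and 3830.1 to 4323 with DEHP (0.10 ± 0.08, adjusted p = 0.599) and 12502 to 13431 with corn oil and 12969.8 to 13358 with DEHP (0.01 ± 0.05, adjusted p = 0.935).

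Some endothelial markers fell. Of 20 genes 6 fell and 0 rose (median -0.16), and the falls numbered 2 without WT-53 or WT-56 and 3 without WT-54 or WT-55. The summed intensity was 6449 to 7256 with corn oil and 5429 to 6099.7 with DEHP, without overlap. Ehd3, a membrane trafficking protein of liver sinusoids, read 704, 776, 674 and 692 with corn oil and 439, 545, 526 and 451 with DEHP (-0.54 ± 0.08, adjusted p = 0.000946) and Stab2, the sinusoidal hyaluronan receptor, read 433, 468, 455 and 411 with corn oil and 337, 359, 349 and 354 with DEHP (-0.33 ± 0.06, adjusted p = 0.00337). Clec4g, also of sinusoids, overlapped at 755 to 852 with corn oil and 724 to 817 with DEHP (-0.09 ± 0.07, adjusted p = 0.616), as did the pan-endothelial Pecam1 at 123.3 to 142 with corn oil and 133 to 149 with DEHP (0.11 ± 0.08, adjusted p = 0.557). In whole tissue fewer cells of a type and less RNA per cell cannot be told apart. Stellate and matrix markers gave 0 rises and 3 falls of 24 (median -0.06), 3 falls whichever animal was left out. They were Reln at 373 to 411 with corn oil and 257 to 292 with DEHP (-0.50 ± 0.10, adjusted p = 0.00762), Ecm1 at 932 to 1036 with corn oil and 700.3 to 793 with DEHP (-0.38 ± 0.06, adjusted p = 0.00327) and Col4a2, a chain of basement membrane collagen, at 122.2 to 129 with corn oil and 99.0 to 107 with DEHP (-0.28 ± 0.05, adjusted p = 0.00699).

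Markers of Kupffer cells and macrophages (0 of 19 called), of T, B and NK cells (0 of 16) and the interferon-stimulated genes (0 of 27) gave no call by limma, and at an unadjusted p below 0.05 they held 1, 0 and 5 genes. Clec4f, which defines Kupffer cells, was at 455, 479, 462 and 468 with corn oil and 437, 427, 607 and 359 with DEHP (-0.05 ± 0.15, adjusted p = 0.911). Of 14 neutrophil markers 1 rose, S100a8, also an acute phase gene, at 27.6, 46.6, 24.0 and 33.0 with corn oil and 100.5, 122.4, 83.1 and 137 with DEHP (3.43-fold, 1.78 ± 0.24, adjusted p = 0.00061). Its partner S100a9 stayed near the dim end at 29.5 to 35.6 with corn oil and 34.7 to 36.4 with DEHP, and the granule genes Mpo and Elane at 28.3 to 35.9 with corn oil and 29.8 to 32.7 with DEHP and 31.5 to 33.2 with corn oil and 29.9 to 38.3 with DEHP. The summed intensity of the neutrophil list was 343 to 374 with corn oil and 419 to 526 with DEHP, and the rise of S100a8 is part of that sum. The list median, which a single gene moves little, overlapped at -0.04 to 0.03 with corn oil and -0.05 to 0.13 with DEHP.

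Markers of bile ducts moved with WT-57. Krt19 and Dmbt1 were chosen after their values were seen. Krt19, a duct keratin, read 59.7, 37.9, 49.8 and 40.7 with corn oil and 45.1, 211, 44.3 and 50.9 with DEHP and Tspan8, an epithelial tetraspanin, 30.9, 28.5, 29.0 and 26.2 with corn oil and 30.0, 148, 27.7 and 31.1 with DEHP, so that WT-57 alone left the common range. The summed intensity of the 10 duct markers was 828 in WT-57, against 382 to 407 in the controls and 401 to 505 in the other DEHP animals. Dmbt1, a secreted mucosal scavenger, read 21.3, 13.5, 23.1 and 19.3 with corn oil and 26.1, 1452, 24.3 and 21.0 with DEHP. None of these passed the test (adjusted p = 0.541, adjusted p = 0.468 and adjusted p = 0.534). The difference of Dmbt1 was 1.81 with WT-57 and 0.33 (adjusted p = 0.935) without it. The duct keratin that did pass, Krt23, was high in other animals, at 44.6, 46.3, 41.2 and 47.3 with corn oil and 57.8, 62.5, 165 and 98.9 with DEHP (0.97 ± 0.24, adjusted p = 0.0322), and its call was lost without any 1 of WT-52, WT-53, WT-54, WT-55 and WT-59 (adjusted p up to 0.0858), and with the wild-type arrays alone. Over all genes 365 rose and 249 fell without WT-57.

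Whether the wild-type effect of DEHP differed from that in PPARα-null mice was tested as the difference of the differences. It differed in 179 of all genes (0.898%), with the wild-type effect above the null effect in 0.562% and below it in 0.336%, and in 124 of the 770 genes that changed in wild-type liver (71 of the rises and 53 of the falls). Since the null mice were also of another substrain and were 3 against 4, the test compares these mice and not the receptor alone. When 1 wild-type animal was left out the number that differed was between 61 (without WT-53) and 145 (without WT-58). In null liver 94 genes changed (0.471%). Of the 770 and the 94 genes 19 were shared, 2.47% of the former and 20.2% of the latter, 17 in the same direction.

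Among the fatty acid genes 4 of 13 Cyp4 genes, 4 of 23 peroxisomal and 6 of 26 mitochondrial β-oxidation genes differed. Cd36 had -0.04 ± 0.17 in null liver and differed by 2.59 ± 0.23 (adjusted p = 4.84e-05). Cyp4a14 differed by 4.84 ± 0.65 (adjusted p = 0.00257), Ehhadh by 2.60 ± 0.23 (adjusted p = 4.84e-05), Vnn1 by 3.71 ± 0.40 (adjusted p = 0.000197), Mogat1 by 3.31 ± 0.25 (adjusted p = 1.05e-05) and Hadhb by 0.70 ± 0.12 (adjusted p = 0.0142). Each of these is the wild-type effect minus the null effect, and in each the null effect was the smaller. Among falls, Apoa4 was at -0.09 in null liver (adjusted p = 0.000172 for the difference), Gulo at 0.08 (adjusted p = 0.00963) and Rdh5 at -0.35 (adjusted p = 0.0178). These differences remained past the threshold whichever wild-type animal was left out. Pklr was at 0.08 in null liver (adjusted p = 0.0245 for the difference), which was lost without any 1 of 3 wild-type animals (adjusted p up to 0.0586).

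Fabp2 and Cyp2c37 changed in opposite directions. Fabp2 was higher with DEHP in wild-type and lower in null mice (-0.87 ± 0.11, adjusted p = 0.00412), while the cytochrome Cyp2c37 was lower in wild-type (-0.51 ± 0.14, adjusted p = 0.0452) and higher in null mice (0.88 ± 0.15, adjusted p = 0.0213). The wild-type call of Cyp2c37 was lost when any 1 animal was left out (adjusted p up to 0.115). Cyp2c55 and Cyp2b10 had the larger effect in null mice. Cyp2c55 was at 2.08 ± 0.17 there and differed by -1.54 ± 0.23 (adjusted p = 0.00604). Cyp2b10 was at 1.55 ± 0.16 and differed by -1.09 ± 0.22 (adjusted p = 0.0308), a difference lost without any 1 of 4 wild-type animals (adjusted p up to 0.068).

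For other groups the difference did not pass. By limma none of the 21 cholesterol genes and none of the 27 acute phase genes differed (3 and 6 at an unadjusted p below 0.05, and 1 acute phase gene without WT-57), and the medians of the cholesterol list were 0.53 in wild-type and 0.45 in null mice. Hmgcs1 was at 0.76 ± 0.16 in null liver (adjusted p = 0.221 for the difference) and Idi1 at 0.64 ± 0.13 (adjusted p = 0.941). Saa2 was at 1.96 ± 0.67 (adjusted p = 0.0675), Lcn2 at 1.67 ± 0.64 (adjusted p = 0.288) and Orm2 at 1.75 ± 0.36 (adjusted p = 0.909). The peroxisomal Hacl1 was at 0.51 ± 0.08 in wild-type and 0.53 ± 0.08 in null liver (adjusted p = 0.954), and the synthetase Acsf2 at 0.94 ± 0.10 and 0.60 ± 0.10 (adjusted p = 0.307). A p above the threshold does not show that the effects were equal. Of the 31 proteasome subunits 5 differed (2 without WT-53), with list medians of 0.15 and -0.12, and of the 20 endothelial markers 3 differed (1 without WT-53, WT-54 or WT-56), with medians of -0.16 and 0.12. Of the 42 oxidative phosphorylation subunits 3 differed (0 without WT-52, WT-53, WT-55, WT-57 or WT-59), with medians of 0.08 in wild-type and -0.20 in null mice. At an unadjusted p below 0.05 limma gave 21, 13 and 24 members of these lists in that order.

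**Figure D4:**
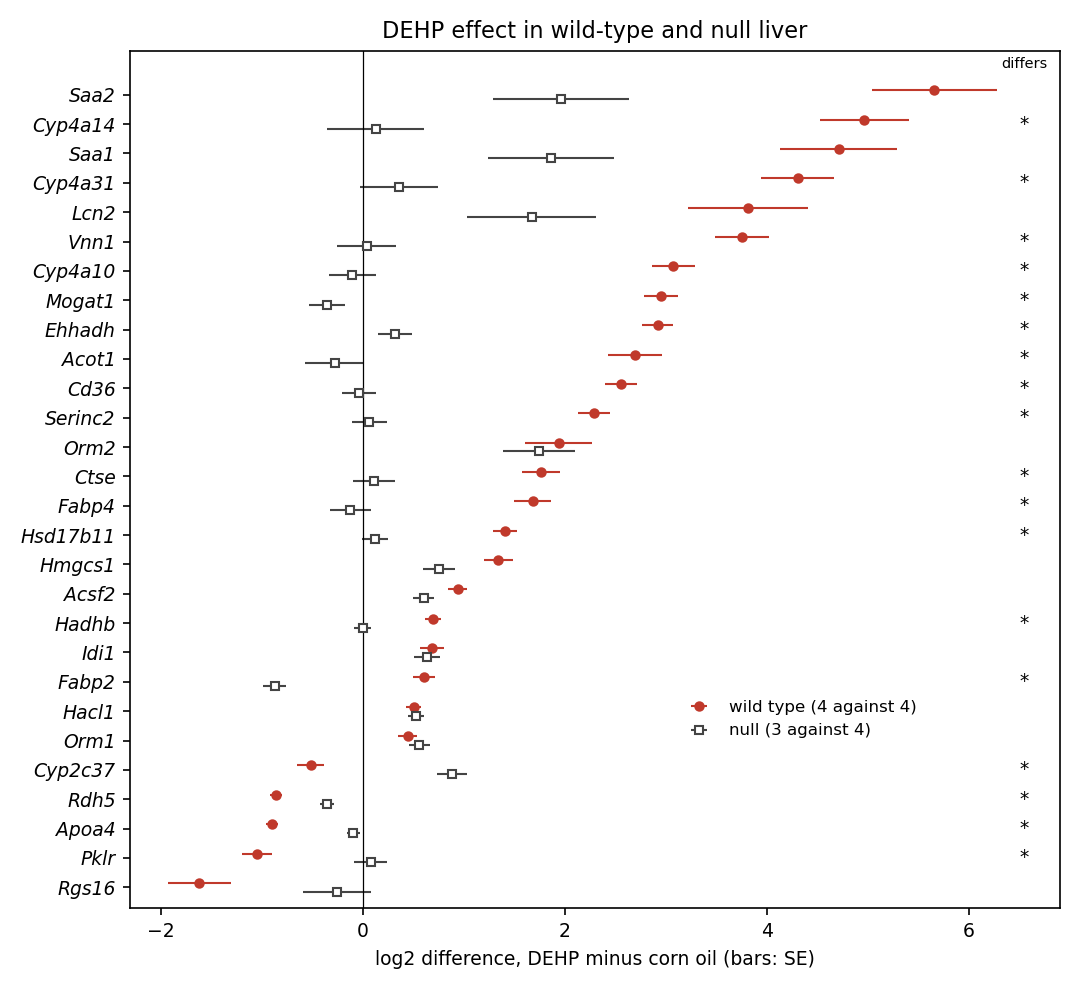
Log2 difference (DEHP minus corn oil, bars are SE) of 28 genes in wild-type liver (red circles, 4 against 4) and PPARα-null liver (open squares, 3 against 4), with a star where the 2 differences differed at adjusted p below 0.05. Cyp4a14 is at 4.97 in wild-type and 0.13 in null liver, while Orm2 is at 1.94 and 1.75.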

How the data were processed

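Liver RNA of 15 mice, 1 array each, was labelled with an Affymetrix whole-transcript cDNA kit, per the labels' protocols. The deposited values are positive linear intensities on a common scale, and the sources used here do not state their normalization. A transformation to log2 was the only step applied to the deposited intensity values. Of 35494 probe sets 21789 carried a single gene symbol in the platform annotation, 1621 several and 12084 none. For the 999 genes with several probe sets the brightest set stood for the gene, which left 19938 genes.

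Group means of all 4 groups were fitted with limma 3.58.1 in R 4.3.3 (lmFit, eBayes, 11 residual degrees of freedom), with Benjamini-Hochberg adjustment over all genes, a threshold of 0.05 and no minimum fold. The fit was tested on simulated data with known shifts and independent normal noise, of equal spread in all groups for each gene. Such data hold no animal that stands apart, so that test does not cover animals like WT-57 and WT-58. An effect differed between genotypes where the difference of the differences passed the same threshold. The precision is limited by 4 animals a group, and all wild-type animals of a group carry separate animal numbers.

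The members and the 54 gene lists (1145 measured genes) were chosen with earlier results of these data known. Genes were drawn from a rule that took 4 receptors, the 20 largest non-overlapping rises and as many falls. The rule also took at most 4 called genes of each list in each direction and a fixed set, whether called or not. The largest uncalled member of each list and near-identical neighbours completed it. Not all genes of the rule are given in the text. Left out are the large falls Lrtm1, Omd, Gm10804, Hsd3b2, Rdh16f2, Mirlet7c-1 and Tcim. Some called list members and some largest uncalled members, such as Sult1e1 and Lpl, are also left out. Clec4g, Dbi, Dmbt1, Elane, Fabp1, Fabp2, Fgb, Fgg, Hacl1, Hadha, Hadhb, Hp, Idi1, Krt19, Mpo, Pecam1, Plin2, S100a9, Saa3 and Txnip fall outside this rule and were added after their values were seen. Some genes were not analysed here. The alternatives were quantile normalization, log2(value + 32), brighter genes only, the mean of probe sets, an intensity trend with robust spread, the wild-type arrays alone, and leaving out each wild-type animal. Promoters came from RefSeq for GRCm38.p6.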

Additional observations from a re-analysis of the deposited data

Results flagged for a closer look

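In each group of 4 wild-type animals the highest and lowest value of every named gene was set against Dixon's critical value. Of 332 such groups 29 held an animal past it, and 13 of the 29 were WT-58. Chance alone passes about 1 in 20 groups picked without sight of their values. Many of the named genes were picked by a rule that used the differences in these same arrays. Dmbt1, Krt19, Plin2 and Saa3 among these were named after their values were seen. The count is therefore not read against that share. WT-58 stood apart in Acadl at 3020.1 (others 2286 to 2326), Acot2 at 1696 (others 545 to 576), Acss3 at 522 (others 392.1 to 411), Angptl4 at 936 (others 371 to 408), Cyp2c37 at 607 (others 882 to 896), Cyp4a31 at 6037 (others 5081 to 5125), Gm15441 at 649 (others 55.8 to 64.4), Pex11a at 1508 (others 692 to 713), Pex3 at 583 (others 485 to 499.7), Pklr at 788 (others 893 to 913), Plin2 at 2962 (others 1420.1 to 1528), Slc25a20 at 2659.5 (others 1725 to 1753) and Vnn1 at 2230.1 (others 812 to 929). WT-57 stood apart in Dmbt1 at 1452 (others 21.0 to 26.1), Krt19 at 210.5 (others 44.3 to 50.9) and Tspan8 at 148 (others 27.7 to 31.1). Of the other DEHP animals WT-59 was apart in Col4a2 at 99.0, WT-59 was apart in Hao2 at 13.1, WT-56 was apart in Mvd at 503, WT-56 was apart in Saa3 at 173 and WT-59 was apart in Scd1 at 6220.4. Among controls WT-54 was apart in Arrdc3 at 2401, WT-55 was apart in Blvrb at 679, WT-54 was apart in Hal at 3324, WT-53 was apart in Nr0b2 at 517, WT-55 was apart in Pank3 at 426, WT-52 was apart in Rdh5 at 248, WT-55 was apart in Spry4 at 174 and WT-55 was apart in Srebf1 at 1508.

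The effect of DEHP differed between wild-type and null mice in 45 of the named genes by limma's test of the difference (adjusted p below 0.05). The wild-type effect lay above the null effect, in log2, by 4.84 in Cyp4a14, by 3.95 in Cyp4a31, by 3.71 in Vnn1, by 3.31 in Mogat1, by 3.18 in Cyp4a10, by 2.97 in Acot1, by 2.60 in Ehhadh, by 2.59 in Cd36, by 2.22 in Serinc2, by 1.99 in Acot2, by 1.80 in Fabp4, by 1.65 in Ctse, by 1.48 in Fabp2, by 1.29 in Hsd17b11, by 1.23 in Pltp, by 1.22 in Acaa1b, by 1.08 in Lipg, by 0.91 in Eci1, by 0.81 in Ech1, by 0.78 in Decr1, by 0.78 in Acot8, by 0.70 in Hadhb, by 0.61 in Acadl, by 0.46 in Dbi and by 0.34 in Psmb7. It lay below the null effect, with wild-type minus null at -1.54 in Cyp2c55, -1.40 in Cyp2c37, -1.13 in Pklr, -1.09 in Cyp2b10, -0.81 in Apoa4, -0.74 in Gna14, -0.72 in Cyp4f14, -0.66 in Ehd3, -0.63 in Cyp1a2, -0.60 in Gulo, -0.59 in Pigr, -0.55 in Hal, -0.55 in Slc37a4, -0.54 in Pipox, -0.53 in Pygl, -0.53 in Prodh, -0.51 in Rdh5, -0.46 in Abcb11, -0.46 in F5 and -0.43 in Stab2. The difference was lost on leaving out at least 1 wild-type animal in Abcb11, Acadl, Acot2, Acot8, Cyp2b10, Dbi, F5, Gna14, Hal, Lipg, Pigr, Pklr, Pltp, Prodh, Psmb7, Slc37a4 and Stab2, with adjusted p up to 0.104, and in none of the others. Substrain and genotype cannot be told apart in these differences.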

How the results depend on the processing

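Of the 126 named genes called in wild-type liver 103 were called under each of the 14 alternatives that gave them a value, and no called gene changed direction under any. The rises numbered 447 with quantile normalization, 565 with log2(value + 32), 597 among brighter genes only, 549 with an intensity trend and robust spread and 426 with the wild-type arrays alone. The falls numbered 412, 463, 504, 423 and 241 under the same alternatives in that order. The genes whose effect differed from null numbered 222, 444, 570 and 424 under the first 4 of these. Brighter genes only leaves fewer genes to test, and the cause of the other shifts was not tested. Leaving out each wild-type animal in turn gave 276 to 365 rises, 157 to 249 falls and 61 to 145 differing genes, lowest without WT-53 in all 3 counts. Fewer animals entered each of those fits.

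Uncalled genes near zero changed sign in log2. Under quantile normalization Ppara was at -0.0003, Nr1i3 at -0.0029 and Alb at 0.0340. Leaving out each wild-type animal in turn gave ranges across zero for 8 of them: Ppara from -0.1069 to 0.1175, Alb from -0.0176 to 0.0148, Clec4f from -0.1990 to 0.0543, Cyp1a1 from -0.0515 to 0.0926, Cyp2e1 from -0.0079 to 0.0266, Elane from -0.0124 to 0.1055, Fgf21 from -0.0460 to 0.3069 and Plin2 from -0.1411 to 0.2190.

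No paired analysis was possible because the animal numbers are not shared between the groups. With 4 animals a group a single animal moved many calls near the threshold. Dim genes such as Mki67 lay below the array medians, and how a low level bears on the precision was not tested.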

Other observations

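WT-57 lay at least 2-fold above every other wild-type animal in 22 genes, and those given here were chosen after their values were seen. Plet1, a placental and epithelial surface protein, was at 369 in WT-57 against 42.2 to 49.3 elsewhere. The matrix protease Mmp7 was at 138 against 20.6 to 25.7, the mucin Muc1 at 94.0 against 23.5 to 28.7 and the surface protein Cd24a at 88.2 against 19.5 to 28.0. The peptidoglycan-binding protein Pglyrp1 was at 219 against 42.7 to 61.6, the chemokine Cxcl5 at 99.0 against 16.9 to 21.0 and lactoferrin, Ltf, at 55.9 against 14.2 to 18.2. The epithelial oxidase Duox2 and its partner Duoxa2 were at 72.9 and 59.4, against up to 27.1 and 26.9. Adipoq, the fat-cell hormone adiponectin, was at 26.0 against 7.3 to 9.1, still at the dim end. These values come from 1 animal and no test was made of them.

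In WT-58 the median of the 27 interferon-stimulated genes was 0.34 above the corn oil mean in log2, against -0.14 to 0.03 in the other 7 wild-type animals. Their summed intensity was 5623 in WT-58 and 4051 to 4322 in the others. Usp2, a deubiquitinase with a daily rhythm, was at 363 against 71.0 to 162, the cell cycle kinase Wee1 at 346 against 83.0 to 166, and the urinary protein gene Mup21 at 583 against 1214 to 2707. Among controls, WT-52 stood above the rest in Cyp39a1, an oxysterol hydroxylase, at 453 against 86.6 to 225, and WT-55 in Gadd45g, a stress-response gene, at 767 against 122.6 to 341.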
